A study of Mus musculus with 4 samples.

Results

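Globin and heme synthesis genes were followed across bone marrow cells of the mouse. The 9 genes are the adult alpha-globin genes Hba-a1 and Hba-a2, the adult beta-globin genes Hbb-bs and Hbb-bt, and the heme synthesis genes Alas1, Alas2, Alad, Urod and Fech. They were chosen by name from the 32285 genes counted, and all 9 were found among them. Bone marrow was taken from 6 female mice of 6 weeks carrying Tppp3CreER, a tamoxifen-inducible Cre under Tppp3, and LSLTdTomato, a Cre-dependent red fluorescent reporter. A pair of mice received tamoxifen with rapamycin on postnatal days 0 and 3 (called tamoxifen+rapamycin), a pair received tamoxifen alone on those days (tamoxifen), and a pair received rapamycin alone on postnatal day 30 (late rapamycin). Late rapamycin mice had no tamoxifen, so that comparisons with them differ in tamoxifen as well as in the time of rapamycin. All 6 mice carried both alleles. The age is that of the labels; the design text gives a wait of 2 weeks before isolation, without saying from which injection, which is too short if counted from postnatal day 3. On each of 2 days, 1 mouse of each treatment was marked with a hashtag antibody and the 3 mice were run together, so the day is the replicate number.

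The animal numbers in the sample labels and in the hashtag table do not match. The table assigns hashtags 1 and 4 to tamoxifen+rapamycin, while the labels number the tamoxifen mice 1 and 4. The table was followed, and its control mice, hashtags 3 and 6, were read as late rapamycin. Under the other reading the tamoxifen+rapamycin and tamoxifen mice are exchanged: their difference changes sign, and their comparisons with late rapamycin trade places.

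Heme is made in a chain of enzymes that starts and ends in mitochondria. Aminolevulinate synthase makes the first precursor, and its form Alas2 serves red cell precursors while Alas1 serves other tissues. Alad and Urod act in the cytosol, and Fech closes the chain by placing iron in the ring. Adult hemoglobin joins alpha and beta globin chains, each holding a heme, and its genes are among the most active in maturing red cell precursors, where the factors GATA1 and KLF1 act on them.

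The alpha-globin genes lie on chromosome 11, Hba-a1 at chr11:32283511-32284465 and Hba-a2 at chr11:32296489-32297298 on the plus strand (GRCm38). On chromosome 7, Hbb-bt lies at chr7:103812524-103813996 and Hbb-bs at chr7:103826534-103828096, both on the minus strand. Alas1 lies at chr9:106233455-106248654 (minus), Alas2 at chrX:150547375-150570638 (plus), Alad at chr4:62509169-62519918 (minus) and Urod at chr4:116989965-116994413 (minus). All are protein-coding. The spliced transcripts of Hba-a1 and Hba-a2 were identical at 537 of 538 aligned bases, with 177 gap positions beside these. Those of Hbb-bs and Hbb-bt were identical at 585 of 626, with 79 gap positions. In the last 200 bases, at the 3′ end, the alpha pair was identical at 183 of 184 aligned bases with 32 gap positions. The beta pair was identical there at 161 of 197 with 6. How reads were assigned within a pair was not examined. The split of reads within the alpha pair is therefore taken as uncertain, and that within the beta pair as less firmly fixed than the sums.

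The 250 bases before the RefSeq start of 5 of the genes are shown, since the globin genes and Alas2 were highest in erythroid cells and Alas1 in neutrophil progenitors (RefSeq, GRCm38.p6; 8 of the 9 genes were looked up). Each is written 5′ to 3′ on the gene's own strand. The gene positions above come from another annotation, which places the starts elsewhere. All 5 windows overlap those positions, and that of Alas1 lies wholly within them. Capitals mark a GATA-type or a KLF1-type word on either strand, and overlapping words run together. The GATA-type words searched were AGATAA and its variant AGATAG, and likewise TGATAA with its variant TGATAG. The KLF1-type word was CCNCNCCC. The windows were chr11:32283422-32283671 (plus) for Hba-a1, chr7:103827929-103828178 (minus) for Hbb-bs, chr7:103813924-103814173 (minus) for Hbb-bt, chrX:150547167-150547416 (plus) for Alas2 and chr9:106247955-106248204 (minus) for Alas1.
Hba-a1: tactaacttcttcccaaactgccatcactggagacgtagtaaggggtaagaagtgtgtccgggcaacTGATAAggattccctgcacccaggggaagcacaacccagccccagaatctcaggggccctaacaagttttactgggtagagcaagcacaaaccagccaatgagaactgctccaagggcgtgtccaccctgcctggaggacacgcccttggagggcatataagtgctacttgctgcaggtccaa
Hbb-bs: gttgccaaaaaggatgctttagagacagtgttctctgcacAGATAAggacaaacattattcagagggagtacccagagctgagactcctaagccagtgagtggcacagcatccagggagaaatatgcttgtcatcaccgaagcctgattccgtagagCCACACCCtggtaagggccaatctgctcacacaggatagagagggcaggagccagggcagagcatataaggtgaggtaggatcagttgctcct
Hbb-bt: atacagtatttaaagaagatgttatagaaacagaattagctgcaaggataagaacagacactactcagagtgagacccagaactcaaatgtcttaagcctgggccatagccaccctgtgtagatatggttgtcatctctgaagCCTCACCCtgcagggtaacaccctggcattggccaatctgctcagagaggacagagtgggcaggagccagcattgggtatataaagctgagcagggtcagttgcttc
Alas2: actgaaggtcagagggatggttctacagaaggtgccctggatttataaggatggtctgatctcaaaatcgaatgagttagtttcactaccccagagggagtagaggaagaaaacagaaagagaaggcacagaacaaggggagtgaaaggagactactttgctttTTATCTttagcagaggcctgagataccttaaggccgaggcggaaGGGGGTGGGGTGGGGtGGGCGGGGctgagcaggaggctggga
Alas1: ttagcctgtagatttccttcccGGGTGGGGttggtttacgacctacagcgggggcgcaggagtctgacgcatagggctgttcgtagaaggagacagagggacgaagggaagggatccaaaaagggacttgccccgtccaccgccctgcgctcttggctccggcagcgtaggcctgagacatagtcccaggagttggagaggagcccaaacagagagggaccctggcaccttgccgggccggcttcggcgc

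In these windows Hba-a1 held 1 GATA-type word and no KLF1-type word, Hbb-bs held 1 of each, and Hbb-bt held 1 KLF1-type word and no GATA-type word. Alas2 held 1 GATA-type word and 4 KLF1-type words, some of which overlap, while Alas1 held 1 KLF1-type word and no GATA-type word. Alas1 has another RefSeq start, not shown, whose window held 2 KLF1-type words and no GATA-type word. Counting every RefSeq start of the 8 genes, 4 genes held a GATA-type word and 5 a KLF1-type word. Over all 32851 promoter windows of this length, 26.5% held a GATA-type word and 45.9% a KLF1-type word. These shares are of single windows, while the gene counts join all starts of a gene. Hba-a1 and Hba-a2 were 97.6% identical over aligned windows, and Hbb-bs and Hbb-bt 70.5%. The GATA-type words of Hba-a1 and Hba-a2 are thus the same stretch in near copies. A match is a description of letters and says nothing of binding.

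After hashtag assignment and filters, 34966 cells remained, from 5563 to 6489 per mouse, with 22950176 to 37721569 unique molecular identifiers (UMIs, single captured RNA molecules) per mouse. Levels are CPM, the count of a gene scaled to 1e+06 UMIs, in a cell class of a mouse. The assay reads transcript 3′ ends, so CPM needs no scaling by length, though capture can differ between genes. Cells came from sorted Lin-Sca+Kit+ and Lin-Sca-Kit+ fractions and from whole marrow, so that the number of cells of a class also follows the sort. Late rapamycin replicate 1 stood apart, with 115 B cell-like cells against 412 to 633 in the other mice and 888 neutrophil progenitor-like cells against 184 to 297. The 2 days shared 126 barcodes, 56 of them among kept cells. Cells were grouped without the 9 genes, which gave 11 named classes and 7 unnamed clusters.

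Erythroid progenitor-like cells numbered 3075, or 8.79% of kept cells, in 3 clusters. Cluster 7 (1579 cells, all of day 2) and cluster 10 (1426 cells, 99.6% of day 1) each had all 15 detected erythroid markers raised, and cluster 26 (70 cells) had 11 of 15. The larger clusters thus split by processing day. The class made up 7.68% and 7.48% of cells in tamoxifen+rapamycin mice, 9.46% and 10.8% in tamoxifen mice, and 7.32% and 10.3% in late rapamycin mice. The difference of tamoxifen+rapamycin from tamoxifen mice was -1.78 percentage points on the first day and -3.32 on the second (exact two-sided permutation p = 0.333, the lowest value that 4 mice can give).

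Globin RNA was concentrated in this class: of 61589 adult globin UMIs, 90.7% lay in erythroid progenitor-like cells. Hbb-bs, the main adult beta-globin gene here, averaged 916 ± 405 CPM (SD, n = 6 mice), followed by Hba-a1 at 437 ± 160, Hba-a2 at 134 ± 62.7 and Hbb-bt at 65.3 ± 36.0. Of these neighbours in the order, Hba-a1 and Hba-a2 had ranges that did not overlap, at 225 to 651 CPM and 43.7 to 214 CPM. The ranges of Hba-a2 and Hbb-bt overlapped, as did those of Hbb-bs and Hba-a1. Hbb-bs exceeded Hba-a1 and Hba-a2 exceeded Hbb-bt in every mouse. The genes used at embryonic stages were nearly absent, with 1 UMI each for Hba-x and Hbb-y and none for Hbb-bh1 and Hbb-bh2. Hbq1b, an alpha-like gene of the same cluster, had 40 UMIs.

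Among the heme synthesis genes of this class, Alad, which makes porphobilinogen, averaged 258 ± 16.8 CPM (n = 6). Urod, the uroporphyrinogen decarboxylase, averaged 161 ± 17.2 CPM and Fech 117 ± 4.88 CPM, and the ranges of these 3 genes did not overlap over the 6 mice. Other enzymes of the chain ranged widely, with Cpox at 396 ± 47.4, Uros at 53.9 ± 2.38 and Ppox at 44.4 ± 4.56 CPM. The entry enzymes were far lower, Alas1 at 17.6 ± 2.74 CPM and Alas2 at 9.24 ± 3.43 CPM. Alas2 rested on 332 UMIs, and in the other named classes its mean was at most 1.93 CPM, in hematopoietic stem cell-like (HSC-like) cells, where late rapamycin replicate 1 alone reached 9.12 CPM. In that mouse a single HSC-like barcode, which also had 853 globin UMIs, held 5 UMIs of Alas2.

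**Figure D1:**
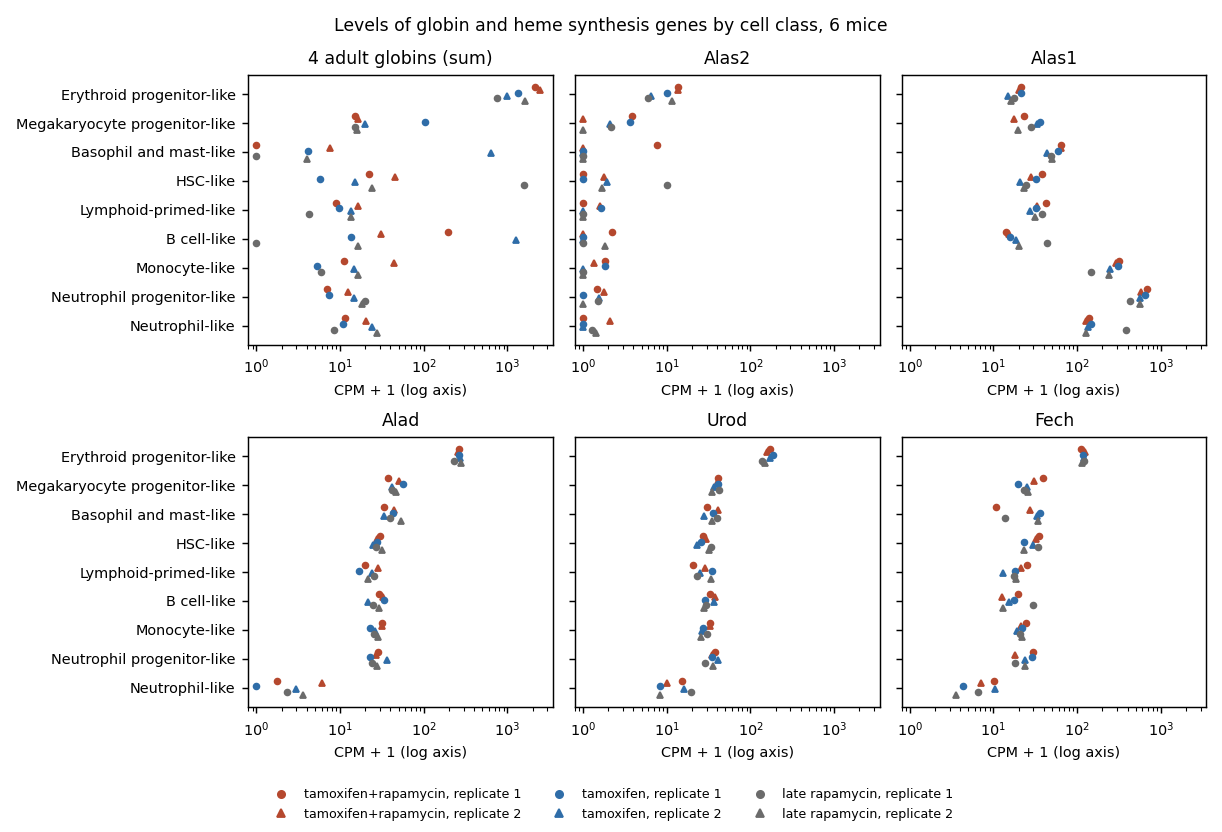
Levels of the summed adult globins and of 5 heme synthesis genes, as CPM + 1 on a log axis, in 9 cell classes; each point is 1 mouse, circles for replicate 1 and triangles for replicate 2. Alas2, Alad, Urod and Fech stand highest in erythroid progenitor-like cells, as do globins apart from single mice in other classes, while Alas1 stands highest in neutrophil progenitor-like cells.

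Alas1 had an order of its own over the classes. It was highest in neutrophil progenitor-like cells, at 679.7 and 584 CPM in tamoxifen+rapamycin mice, 642 and 569 CPM in tamoxifen mice, and 427 and 563 CPM in late rapamycin mice. Monocyte-like cells followed with 258 ± 64.0 CPM and neutrophil-like cells with 176 ± 104 CPM (n = 6), and these classes overlapped in range. Late rapamycin replicate 1 was the lowest mouse in neutrophil progenitor-like and monocyte-like cells and the highest in neutrophil-like cells, at 387 CPM against 125 to 146 CPM in the other mice. Basophil and mast-like cells held 53.5 ± 8.73 CPM, lymphoid-primed-like cells 33.1 ± 5.31, HSC-like cells 27.0 ± 6.52 and megakaryocyte progenitor-like cells 25.3 ± 7.17, the last 3 overlapping. No treatment difference of Alas1 was called in the leading classes: tamoxifen+rapamycin minus late rapamycin gave 0.32 in neutrophil progenitor-like (adjusted p = 0.750), 0.67 in monocyte-like (adjusted p = 0.438) and -0.85 in neutrophil-like cells (adjusted p = 0.901). Erythroid progenitor-like cells, at 13.9 to 20.4 CPM, lay at the low end, within the range of B cell-like cells at 13.2 to 42.5 CPM. Thinned to 1000 UMIs per cell, an Alas1 UMI was seen in 37.1% of neutrophil progenitor-like cells on day 1 and 38.7% on day 2, against 2.38% and 0.871% of erythroid progenitor-like cells, with median depths before thinning of 9927 and 9849.5 against 9596 and 14270 UMIs.

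Alad, Urod and Fech had another order. Outside the erythroid class they were highest in the unnamed cluster 13 (1175 cells; Fech in the 73 cells of cluster 25, at 40.2 ± 45.4 CPM, had a similar mean), in which 6 of 15 erythroid markers were raised: Alad had 95.8 ± 9.44 CPM there, Urod 76.3 ± 12.8 and Fech 38.1 ± 5.11 (n = 6). Every mouse had less of each gene in cluster 13 than in erythroid progenitor-like cells. Alas2 and the globins did not share this step, with 0.630 ± 0.747 CPM of Alas2 and 12.7 ± 6.82 CPM of summed globins in cluster 13. In HSC-like cells Alad averaged 27.0 ± 2.49, Urod 27.4 ± 4.08 and Fech 28.6 ± 5.35 CPM, 3 overlapping levels. Neutrophil-like cells were lowest among the 9 classes plotted, with 1.95 ± 1.77 CPM of Alad, 11.9 ± 4.70 of Urod and 6.01 ± 2.85 of Fech. Neutrophil progenitor-like cells, where Alas1 was highest, had 26.6 ± 4.55 CPM of Alad and 22.6 ± 4.86 CPM of Fech.

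Over 27 clusters of at least 50 cells, Pearson correlations of log2(CPM + 1) named the genes most like some of the 9, as a description of clusters that share libraries and differ in depth. Alas1 was closest to Cldn15 (r = 0.93), Anxa3 (0.90) and Ms4a3 (0.89). Fech was closest to Minpp1 (0.94), Isca1 (0.93) and Cul4a (0.92). For Hbb-bs these included Atg4b (0.81) and Rfesd (0.77), and for Alas2 Garem1 (0.74), Nfia (0.73) and Tmem56 (0.73). Barcodes rich in globin were kept in these levels. Hbb-bs stood at 625 CPM in the B cell-like cluster 12, beside 935 and 839 CPM in the erythroid clusters 7 and 10. Alas2 stood at 9.31 and 8.83 CPM in clusters 7 and 10 and at no more than 1.48 CPM in any other. Its list thus rests mostly on values near the floor.

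Within the erythroid class, globin RNA was spread very unevenly over cells. No globin UMI was found in 1263 cells (41.1%), and 1356 cells (44.1%) had up to 1000 globin CPM. Another 312 cells (10.1%) had 1000 to 10000 CPM, and 144 cells (4.68%) had more, yet these 144 held 74.5% of the globin UMIs of the class. The tenth of cells with most globin held from 81.3% to 90.6% of it in each mouse. The median cell of the class had 1 globin UMI, and the richest had 1811.

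Heme synthesis genes were higher in the globin-rich cells, with the exception of Alas1. Alas2 averaged 259 ± 140 CPM of non-globin UMIs in cells above 10000 globin CPM (SD over 6 mice), against 0.581 ± 0.241 CPM in cells without globin. Fech stood at 415 ± 99.99 against 82.8 ± 7.54 CPM, Alad at 678 ± 64.2 against 193 ± 15.6 CPM, and Urod at 404 ± 63.1 against 129.6 ± 16.2 CPM, each higher in 6 of 6 mice. Uros, Cpox and Ppox were likewise higher in 6 of 6 mice, Cpox at 962 ± 132 against 307 ± 52.6 CPM. Alas1 was lower in 6 of 6 mice, at 7.69 ± 6.50 against 19.4 ± 2.25 CPM, on 9 UMIs in the globin-rich cells. These cells were grouped by their own globin content, so the values are a description; the median depth was 6830.5 UMIs in globin-rich cells and 11054 in cells without globin.

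Other red cell genes also differed with globin content. Slc4a1, the anion exchanger of the red cell membrane, averaged 666 ± 223 CPM in globin-rich cells against 0.259 ± 0.407 CPM in cells without globin, and Rhd, a blood group antigen, 797 ± 201 against 190.3 ± 18.9 CPM. Slc25a37, the mitochondrial iron importer mitoferrin, averaged 427 ± 172 against 19.9 ± 7.38 CPM and its partner Abcb10 456 ± 62.9 against 48.2 ± 6.49 CPM. The progenitor genes ran the other way: Kit, a growth factor receptor, had 5.80 ± 6.81 against 195 ± 9.02 CPM, and Gata2, a factor of early progenitors, 0.533 ± 1.31 against 26.4 ± 6.86 CPM. Bcl11a, a repressor of embryonic globin genes, was lower in 6 of 6 mice, at 241 ± 68.1 against 484 ± 23.1 CPM.

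**Figure D2:**
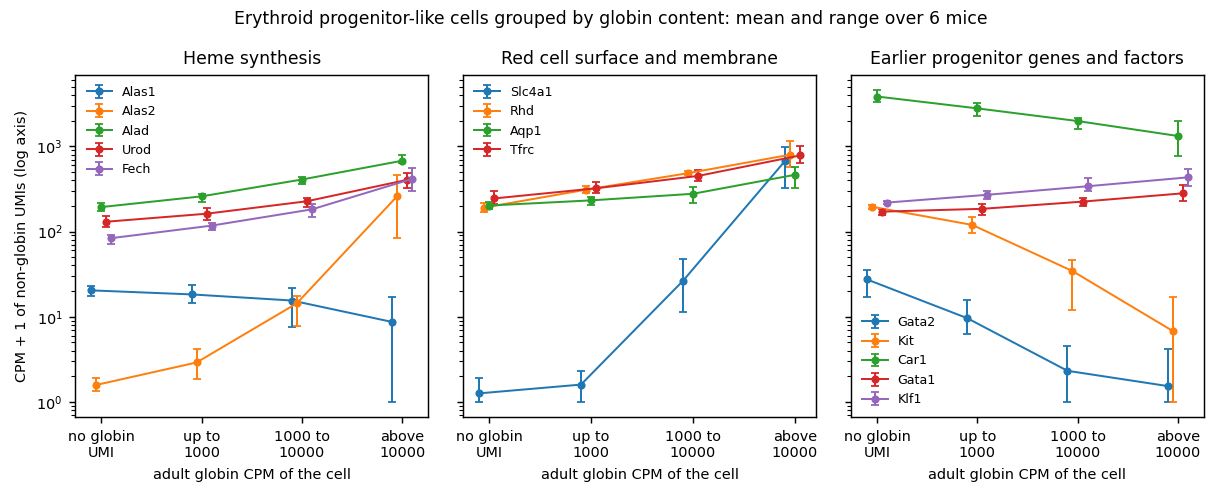
Levels of heme synthesis genes, membrane and surface genes, and progenitor genes and factors in erythroid progenitor-like cells grouped by adult globin content, as CPM + 1 of non-globin UMIs on a log axis; points are means and bars the lowest and highest of 6 mice. Alas2 and Slc4a1 climb steeply above 1000 globin CPM, Alad, Urod and Fech climb at each step, and Alas1, Kit and Gata2 decline.

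The make-up of the globin RNA also differed by globin content. Alpha-globin genes supplied 35.0% ± 1.74 of globin UMIs in cells above 10000 globin CPM, 37.7% ± 3.35 between 1000 and 10000 CPM, and 52.0% ± 4.76 in cells with up to 1000 CPM (SD, n = 6 mice). The lowest value of the last group, 47.8%, lay above the highest of the richest group, 37.0%. Hba-a1 made up 77.4% ± 3.28 of alpha UMIs in the class as a whole, at 75.3% to 78.1% in 5 mice and 83.7% in late rapamycin replicate 1. Of beta UMIs, Hbb-bt made up 7.16% and 7.08% in tamoxifen+rapamycin mice, 4.54% and 5.26% in tamoxifen mice, and 7.01% and 7.72% in late rapamycin mice, so that both tamoxifen mice lay below the other 4.

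Globins were compared between treatments in the erythroid class from counts summed per mouse (edgeR quasi-likelihood test with day as a block, Benjamini-Hochberg adjustment over 10406 genes). Hbb-bt was at 99.0 and 113 CPM in tamoxifen+rapamycin mice, 38.2 and 30.8 CPM in tamoxifen mice, and 33.8 and 76.8 CPM in late rapamycin mice. Both tamoxifen+rapamycin mice lay above all 4 others. Hbb-bt rose in tamoxifen+rapamycin relative to tamoxifen mice by 1.63 on the log2 scale (SE 0.22, adjusted p = 0.00314), by 1.34 on day 1 and 1.82 on day 2. It was the only one of the 9 genes called in that comparison, where 0.721% of all genes tested were called. DESeq2 gave Hbb-bt a log2 fold change of 1.57 with an adjusted p of 0.495 and did not call it.

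The other globins were likewise highest in both tamoxifen+rapamycin mice, without passing the test. Hba-a1 had 574 and 651 CPM in tamoxifen+rapamycin mice, 377 and 322 CPM in tamoxifen mice, and 225 and 476 CPM in late rapamycin mice. For Hbb-bs the values were 1284 and 1487 CPM in tamoxifen+rapamycin, 805 and 555 CPM in tamoxifen, and 449 and 918 CPM in late rapamycin mice. Hba-a2 had 186 and 214 CPM in tamoxifen+rapamycin, 119 and 90.3 CPM in tamoxifen, and 43.7 and 154 CPM in late rapamycin mice. In each of these genes both tamoxifen+rapamycin mice lay above the other 4 mice, and the late rapamycin mice lay farthest apart. Tamoxifen+rapamycin minus tamoxifen gave log2 fold changes of 0.78 for Hba-a1 (SE 0.19, adjusted p = 0.112), 0.91 for Hba-a2 (SE 0.30, adjusted p = 0.278) and 0.99 for Hbb-bs (SE 0.22, adjusted p = 0.0775). Each was positive on both days. With a single mouse left out, the fold changes ranged from 0.38 to 1.22 for Hba-a1, 0.28 to 1.57 for Hba-a2 and 0.47 to 1.61 for Hbb-bs. Whether these 3 genes passed the test changed with the mouse left out.

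Against late rapamycin mice, none of the 9 genes was called in tamoxifen+rapamycin mice, where 0.49% of all genes were called. The fold changes of the globins lay between 0.84 for Hba-a1 and 1.05 for Hbb-bs on the log2 scale, with adjusted p of 0.0977 and 0.0686. Every globin was higher on both days, by more on day 1 (Hba-a2 by 2.09) than on day 2 (Hba-a2 by 0.47). This comparison and the one before it share the tamoxifen+rapamycin mice. Without late rapamycin replicate 1 the values were 0.36 for Hba-a1 and 0.53 for Hbb-bs, and without late rapamycin replicate 2 they were 1.49 and 1.74. Fits with a single mouse left out have 1 residual degree of freedom. Across them Hba-a2 ranged from 0.35 to 2.26 and Hbb-bt from 0.48 to 1.68, and no globin changed sign. Whether the globins passed the test changed with the mouse left out.

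Between tamoxifen and late rapamycin mice the globins had no common direction. Hba-a1 differed by 0.79 on day 1 and by -0.54 on day 2, Hbb-bs by 0.88 and -0.70, and Hba-a2 by 1.47 and -0.74, with fitted log2 fold changes of 0.06, 0.06 and 0.10. Hbb-bt had a fitted value of -0.71 (SE 0.23, adjusted p = 0.172). Of the 9 genes only Urod was called here, where 1.53% of all genes were called.

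**Figure D3:**
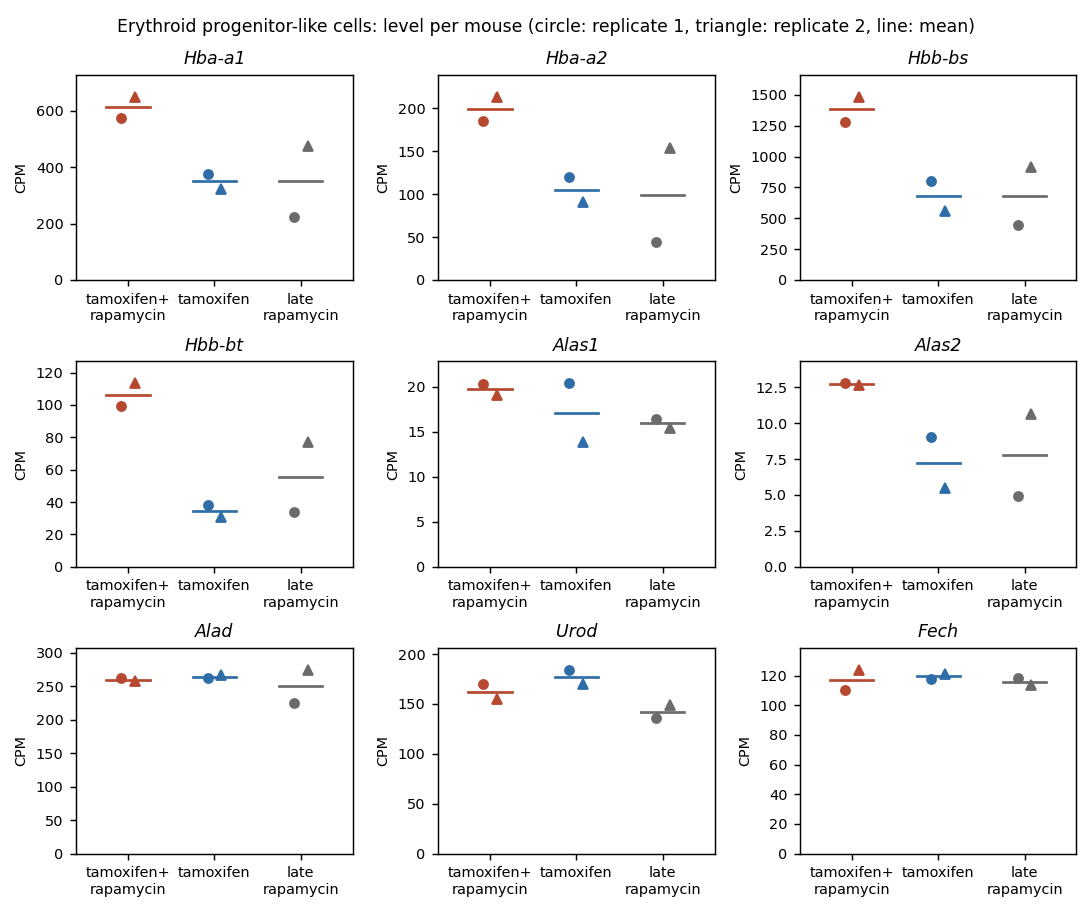
CPM of each of the 9 genes in erythroid progenitor-like cells, on linear axes from 0; points are mice (circle replicate 1, triangle replicate 2) and lines are means of 2 mice per treatment. All 4 globins and Alas2 are highest in both tamoxifen+rapamycin mice, while the treatments overlap for Alad and Fech.

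Globin-rich cells were counted in each mouse. Cells above 10000 globin CPM numbered 21 and 40 in tamoxifen+rapamycin mice, 26 and 23 in tamoxifen mice, and 10 and 24 in late rapamycin mice. As shares of the class these were 4.75% and 9.39% in tamoxifen+rapamycin, 4.72% and 3.83% in tamoxifen, and 2.11% and 4.14% in late rapamycin mice. The share was highest in tamoxifen+rapamycin replicate 2 and nearly equal in the tamoxifen+rapamycin and tamoxifen mice of day 1 (exact two-sided permutation p = 0.333 for tamoxifen+rapamycin against tamoxifen). Summed globins stood at 2143 and 2464 CPM in tamoxifen+rapamycin mice, 1339.8 and 998 CPM in tamoxifen mice, and 751 and 1625 CPM in late rapamycin mice. Without the richest cell of each mouse they were 1884 and 2335 CPM in tamoxifen+rapamycin, 1239 and 928 CPM in tamoxifen, and 699.6 and 1409 CPM in late rapamycin mice, with the same order. Cells above 10000 globin CPM held 6944 and 12798 globin UMIs in tamoxifen+rapamycin mice, 4675 and 5488 in tamoxifen mice, and 1371 and 10343 in late rapamycin mice. Their median depths were 5323 and 8577.5, 4975 and 8595, and 8978 and 5885 UMIs in the same order. The summed counts mix the number of globin-rich cells with the globin RNA per such cell. The part of each in the differences was not tested.

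Of the heme synthesis genes, Alas2 resembled the globins, with 12.8 and 12.6 CPM in tamoxifen+rapamycin mice, 9.02 and 5.46 CPM in tamoxifen mice, and 4.92 and 10.6 CPM in late rapamycin mice. Both tamoxifen+rapamycin mice were above the other 4, but the difference from tamoxifen mice, 0.85 on the log2 scale (SE 0.32), had an adjusted p of 0.368, and that from late rapamycin mice, 0.63 (SE 0.31), one of 0.544. Alas1 had 20.3 and 19.1 CPM in tamoxifen+rapamycin, 20.4 and 13.9 CPM in tamoxifen, and 16.5 and 15.4 CPM in late rapamycin mice, with overlapping groups.

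Urod had 169.7 and 155 CPM in tamoxifen+rapamycin mice, 184 and 170.2 CPM in tamoxifen mice, and 136 and 149 CPM in late rapamycin mice. Both tamoxifen mice were above both late rapamycin mice, and Urod rose in tamoxifen relative to late rapamycin mice by 0.33 on the log2 scale (SE 0.08, adjusted p = 0.0469), by 0.47 on day 1 and 0.22 on day 2. Urod no longer passed when tamoxifen replicate 1 was left out (0.29, adjusted p = 0.587), without tamoxifen replicate 2 (0.39, adjusted p = 0.180), without late rapamycin replicate 1 (0.21, adjusted p = 0.0671), with DESeq2 (adjusted p = 0.505) and without the day block (adjusted p = 0.106).

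Alad and Fech did not pass the test in any comparison. Alad had 262 and 258 CPM in tamoxifen+rapamycin, 263 and 266 CPM in tamoxifen, and 226 and 274 CPM in late rapamycin mice. Fech had 110.4 and 124 CPM in tamoxifen+rapamycin, 117 and 121 CPM in tamoxifen, and 118 and 113 CPM in late rapamycin mice. The groups overlapped, and the log2 fold changes lay within -0.05 and 0.11, with SEs from 0.07 to 0.08. Over the 9 genes the median log2 fold change was 0.78 for tamoxifen+rapamycin minus tamoxifen, 0.63 for tamoxifen+rapamycin minus late rapamycin and 0.08 for tamoxifen minus late rapamycin, beside medians over all genes of 0.000535, 0.000856 and 0.00429 in the same order. In both comparisons of tamoxifen+rapamycin mice the globins and Alas2 lay at or above this median. Alas1, Alad, Urod and Fech lay below it, from -0.15 to 0.22 against tamoxifen mice and from 0.03 to 0.31 against late rapamycin mice.

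**Figure D4:**
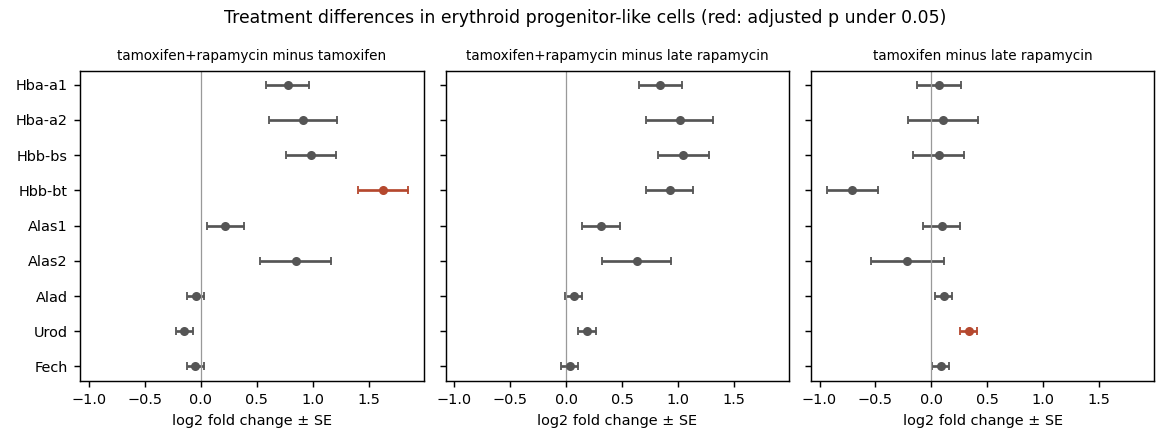
Log2 fold changes of the 9 genes with their standard errors in erythroid progenitor-like cells, 1 panel per comparison of treatments, from edgeR fits on 2 mice per treatment. Hbb-bt (tamoxifen+rapamycin minus tamoxifen) and Urod (tamoxifen minus late rapamycin) are in red, with an adjusted p under 0.05.

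Few of the genes around this pathway passed the test, as did few of all genes. Of all genes tested, 0.721% were called for tamoxifen+rapamycin minus tamoxifen, 0.49% for tamoxifen+rapamycin minus late rapamycin and 1.53% for tamoxifen minus late rapamycin. At such shares, lists this short would hold few or no calls. None of the enzymes Cpox, Uros and Ppox, of the 10 tested genes of heme and porphyrin transport, of the 5 tested genes of heme breakdown and binding, or of the 10 erythroid transcription factors was called in any comparison. The smallest adjusted p among them were those of Blvrb, a biliverdin reductase, at 0.17 in tamoxifen minus late rapamycin (adjusted p = 0.0909), and Slc25a37, at -0.43 in the same comparison (adjusted p = 0.0952). Gata1 and Klf1, the factors that act on globin and heme genes, had log2 fold changes within -0.10 and 0.12.

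Among red cell membrane genes, Rhd (0.26, adjusted p = 0.0466) and the water channel Aqp1 (0.28, adjusted p = 0.0407) rose in tamoxifen relative to late rapamycin mice. Neither Rhd nor Aqp1 passed without tamoxifen replicate 1 (adjusted p = 0.628 and 0.506), tamoxifen replicate 2 (0.320 and 0.344) or tamoxifen+rapamycin replicate 1 (0.0740 and 0.0563). Slc4a1, highest in the globin-rich cells, was not called, at 22.7 and 39.0 CPM in tamoxifen+rapamycin, 20.2 and 14.1 CPM in tamoxifen, and 8.14 and 21.2 CPM in late rapamycin mice. Bach2, a heme-binding repressor, rose in tamoxifen relative to late rapamycin mice by 0.74 (adjusted p = 0.0428). It was the single call among 10 tested genes of heme sensing and control, where 1.53% of all genes were called. With a mouse left out its fold change ranged from 0.57 to 0.98, and the call did not hold without either tamoxifen mouse.

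Outside the erythroid class, globin RNA appeared as a thin layer in all classes plus a few rich barcodes. Thinned to 1000 UMIs, 24.5% of erythroid progenitor-like cells on day 1 and 23.6% on day 2 had a globin UMI. The lymphoid-primed-like class, which should lack globin, had 0.706% and 1.57%, and neutrophil-like cells 0.858% and 2.72%. The share was higher on day 2 than on day 1 in each of the 9 classes plotted except the erythroid one. Median depths before thinning were 9596 and 14270 UMIs in erythroid, 2982.5 and 3739 UMIs in lymphoid-primed-like, and 2964 and 2111 UMIs in neutrophil-like cells. Barcodes outside the erythroid class with fewer than 10 globin UMIs held 9.08 and 17.0 globin CPM in tamoxifen+rapamycin mice, 9.05 and 15.3 CPM in tamoxifen mice, and 6.75 and 17.3 CPM in late rapamycin mice, which parts the days and not the treatments.

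Only 15 of 31891 barcodes outside the erythroid class had 10 or more globin UMIs, and these held 4103 of 5749 globin UMIs there (71.4%). The richest was a B cell-like barcode of tamoxifen replicate 2 with 1412 globin UMIs, 44.4% of its RNA and 76.3% of the globin of its class. It also held 3 UMIs of Slc4a1 and 4 of the B cell gene Cd79a, and none of Alas2, Klf1 or Gata1. Next came an HSC-like barcode of late rapamycin replicate 1 with 853 globin UMIs, 23.2% of its RNA, and 5 UMIs of Alas2. Without the 15 barcodes, mean globin was 13.6 CPM in B cell-like cells, against 255 CPM with them, and 17.4 CPM in HSC-like cells, against 281 CPM.

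The globin calls in HSC-like cells were not made once barcodes rich in globin were left out. HSC-like cells held 21.0 and 44.5 globin CPM in tamoxifen+rapamycin mice, 4.74 and 13.9 CPM in tamoxifen mice, and 1579.7 and 22.8 CPM in late rapamycin mice. Relative to late rapamycin mice, Hba-a1 was called lower in tamoxifen+rapamycin mice (-3.29, adjusted p = 0.0433), where 0.542% of 11254 genes were called, and with opposite signs on the days (-5.82 and 1.05). In tamoxifen mice Hba-a1 (-4.99, adjusted p = 0.00616), Hba-a2 (-4.39, adjusted p = 0.0359) and Hbb-bs (-4.91, adjusted p = 0.00970) were called lower, where 0.435% of genes were called. Without barcodes of 10 or more globin UMIs none of these was called: Hbb-bs had -1.20 (adjusted p = 0.496), and Hba-a1 and Hba-a2 were too rare to test. Without those barcodes 0.231%, 0.551% and 0.409% of 11250 genes were called in the 3 comparisons, in the order tamoxifen+rapamycin minus tamoxifen, tamoxifen+rapamycin minus late rapamycin and tamoxifen minus late rapamycin. The difference of erythroid and HSC-like effects was also tested, over 12707 genes, of which 0.417%, 0.323% and 0.393% were called in that order, and 0.417%, 0.291% and 0.354% without those barcodes. All 4 globins were called there in both comparisons with late rapamycin mice, and without those barcodes Hbb-bs alone was, for tamoxifen+rapamycin minus late rapamycin (1.35, adjusted p = 0.0157). The barcodes were chosen by the globin counts that were then tested, and were left out of HSC-like cells only.

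Across 8 classes other than the erythroid one these 4 calls were the only ones among 132 tests of the 9 genes. In the same order of comparisons, 0.213%, 0.542% and 0.435% of all genes were called in HSC-like cells, 0.117%, 0.0531% and 0% in B cell-like cells, and 0.14%, 0.171% and 0.31% in basophil and mast-like cells. Lymphoid-primed-like cells had 0.0944%, 0.227% and 0.17%, and megakaryocyte progenitor-like cells 0.113%, 0.266% and 0.615%. In monocyte-like cells 0%, 0% and 0.00953% were called, in neutrophil progenitor-like cells 0%, 0% and 0.0198%, and in neutrophil-like cells 0%, so that no call of the 9 genes and almost none of any gene was made there.

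The globin RNA outside the erythroid class had another alpha make-up. In barcodes with fewer than 10 globin UMIs, Hba-a1 made up 53.3% ± 11.0 of alpha UMIs (42.1% to 67.3% over 6 mice), against 75.3% to 83.7% in erythroid progenitor-like cells. Hbb-bt made up 11.9% ± 0.952 of their beta UMIs, against 4.54% to 7.72% in the erythroid class. The alpha share of all globin was 33.2% ± 2.32, close to the 35.0% ± 1.74 of globin-rich erythroid cells and below the 52.0% ± 4.76 of globin-poor ones. The aligned parts of the alpha transcripts are nearly identical, so the Hba-a1 share may depend on how reads were assigned, which was not tested.

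**Figure D5:**
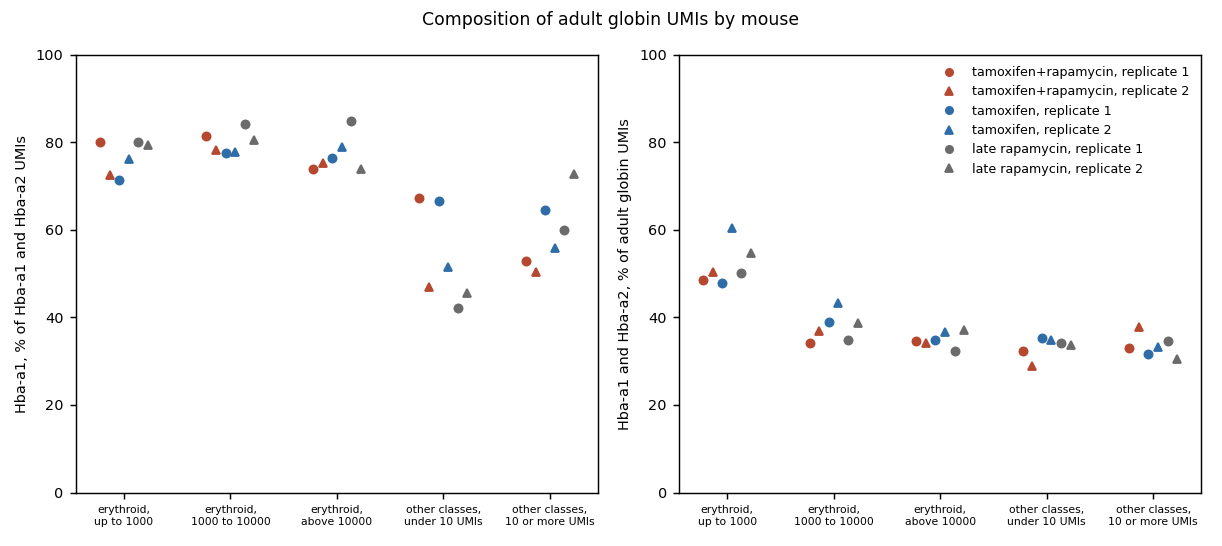
Share of Hba-a1 among alpha-globin UMIs (left) and of alpha-globin among all adult globin UMIs (right), in percent, for erythroid progenitor-like cells grouped by globin CPM and for barcodes of other classes; each point is 1 mouse. Erythroid points for Hba-a1 lie at 71.4% or more, above every point of the other classes other than 1 at 72.7%, and globin-poor erythroid cells have the highest alpha share. The point at 72.7% is a single barcode with 8 Hba-a1 and 3 Hba-a2 UMIs. Points for barcodes of other classes with 10 or more globin UMIs rest on 1 to 6 barcodes per mouse.

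Over all kept cells summed per mouse, globins stood at 416 and 539.6 CPM in tamoxifen+rapamycin mice, 313 and 375 CPM in tamoxifen mice, and 125 and 446 CPM in late rapamycin mice. Late rapamycin replicate 1 was lowest. It also had the lowest share of erythroid progenitor-like cells, 7.32%, beside 7.68% and 7.48% in tamoxifen+rapamycin mice. Within that class it had the lowest globin level, 751 CPM, beside 2143 and 2464 CPM in tamoxifen+rapamycin mice. Sums over all cells mix the number of erythroid cells with the RNA per cell, and the part of each was not tested. None of the 9 genes was called there by edgeR (lowest adjusted p = 0.394), where 0% of 15169 genes were called; 474, 1882 and 1486 genes had an unadjusted p under 0.05 in the 3 comparisons, in the order used above. All p-values rest on 2 mice per treatment.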

How the data were processed

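Single-cell gene and hashtag counts of 6 mice were used. The deposited matrices, 1 per day, hold raw UMI counts made by the authors with Chromium 3′ v3 chemistry, per the labels' protocols. Cell Ranger 8.0.1 is given in the matrices, per the file headers, and Cell Ranger 7.0.0 with mm10 per the submitters' processing notes. Whether intronic reads were counted is not given in the sources used here. Days 1 and 2 held 25058 and 21409 barcodes with 113535036 and 115505329 gene UMIs.

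Hashtags were called on centred log ratios above the 0.999 quantile of background with at least 20 UMIs. Cells needed 1 hashtag, at least 1000 UMIs, 500 genes and at most 10% mitochondrial UMIs, and expected within-mouse doublets (1409 and 1062) were removed. Clustering used scanpy 1.11.5 and leidenalg 0.10.2 with 2000 variable genes, 30 components, 15 neighbours and resolution 1, leaving out the 9 genes and the other listed genes. A cluster was named when at least 50% of the detected markers of a type, and at least 3, were raised 2-fold.

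Counts were summed per mouse and class and tested with edgeR 4.0.16 (R 4.3.3; quasi-likelihood, TMM, filterByExpr), blocking on day, at a threshold of 0.05 after Benjamini-Hochberg adjustment. The block follows the labels, in which the replicate number is the processing day; deviations of same-numbered mice correlated at 0.15 (tamoxifen+rapamycin and tamoxifen), 0.06 and 0.04. CPM are of plain UMI totals, within-day differences use log2(CPM + 1), and intervals and floors (3 counts) cover counting error only. The fits were tested on simulated data. Alternatives were DESeq2 1.42.0, its size factors, no filter, no block, stricter filters, no doublet removal, library sizes without globins and each mouse left out. The genes and lists were chosen with earlier results of these data known. All 9 genes were named, with list genes of the smallest adjusted p, and others were chosen after their values were seen. Some genes of the lists are not reported here.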

Additional observations from a re-analysis of the deposited data

Results flagged for a closer look

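The globin differences from late rapamycin mice were not the same in erythroid progenitor-like and HSC-like cells (interaction of class and treatment in edgeR, 12707 genes tested), and most of these calls were lost without a few barcodes. For tamoxifen+rapamycin minus late rapamycin the log2 fold change in erythroid minus that in HSC-like cells was 4.26 for Hba-a1, 4.06 for Hba-a2, 4.47 for Hbb-bs and 3.28 for Hbb-bt, where 0.323% of genes were called. For tamoxifen minus late rapamycin it was 5.00 for Hba-a1, 4.31 for Hba-a2, 4.94 for Hbb-bs and 4.87 for Hbb-bt, where 0.393% were called. One HSC-like barcode of late rapamycin replicate 1 held 76.4% of the globin UMIs of that class. With barcodes of at least 10 globin UMIs left out of HSC-like cells, only the Hbb-bs difference for tamoxifen+rapamycin minus late rapamycin passed the test, at 1.35 (adjusted p = 0.0157). This filter acts on the globin counts that are then tested, and erythroid cells kept all their barcodes. The call that remains therefore cannot show a treatment effect particular to a class. For tamoxifen+rapamycin minus tamoxifen, with all barcodes in, the values were negative, from -1.59 to -0.25. None was called, and the smallest adjusted p was 0.902, for Hbb-bt. Signs changed without those barcodes: the values were 0.08 for Hba-a1, 1.44 for Hba-a2, 0.51 for Hbb-bs and -1.10 for Hbb-bt, and none was called.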

How the results depend on the processing

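The number of genes called in erythroid progenitor-like cells moved with the settings. It was 75 for tamoxifen+rapamycin minus tamoxifen, 51 for tamoxifen+rapamycin minus late rapamycin and 159 for tamoxifen minus late rapamycin. In the same order it was 25, 22 and 49 with DESeq2, 305, 233 and 463 with no low-count filter, and 30, 16 and 70 without the replicate block. Leaving out 1 mouse at a time, which leaves 1 residual degree of freedom and assumes that a lone mouse varies like the others, gave 48 to 548, 26 to 498 and 50 to 729 genes. The highest counts came without late rapamycin replicate 2, and leaving out late rapamycin replicate 1 gave 534, 241 and 518. Leaving out tamoxifen replicate 1 gave 48, 60 and 50, tamoxifen replicate 2 gave 67, 77 and 68, tamoxifen+rapamycin replicate 1 gave 59, 26 and 164, and tamoxifen+rapamycin replicate 2 gave 133, 141 and 397.

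For Hbb-bt in tamoxifen+rapamycin minus tamoxifen the call held in all settings other than DESeq2, with log2 fold changes of 1.13 to 2.06 when a mouse was left out and an adjusted p of 0.0173 without the block. Hba-a1, Hba-a2 and Hbb-bs were called in both comparisons of tamoxifen+rapamycin with no low-count filter (Hba-a2 at adjusted p of 9.1e-27 against tamoxifen, in place of 0.278); the cause was not tested. Alas2 was called for tamoxifen+rapamycin minus tamoxifen with no filter (0.0127) and without late rapamycin replicate 1 (0.00325) or 2 (0.00403). Urod in tamoxifen minus late rapamycin was not called with DESeq2 size factors (adjusted p = 0.0522), at least 2000 UMIs per cell (0.0503), no doublets removed (0.0838) or without the 70-cell cluster, a setting chosen after seeing the data (0.0547). Rhd, Aqp1 and Bach2 lost calls in some settings and turned no sign; without the block none of the 3 was called (adjusted p = 0.114 for Rhd, 0.117 for Aqp1 and 0.112 for Bach2).

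Signs turned when single mice were left out. For tamoxifen+rapamycin minus tamoxifen the ranges were -0.019 to 0.44 for Alas1, -0.14 to 0.054 for Alad and -0.13 to 0.017 for Fech. For tamoxifen+rapamycin minus late rapamycin they were -0.076 to 0.23 for Alad and -0.046 to 0.10 for Fech. For tamoxifen minus late rapamycin they were -0.44 to 0.69 for Hba-a1, -0.59 to 1.32 for Hba-a2, -0.51 to 0.70 for Hbb-bs, -1.16 to 0.049 for Hbb-bt, -0.12 to 0.34 for Alas1, -0.75 to 0.71 for Alas2 and -0.028 to 0.28 for Alad. The share of erythroid cells differed by -2.70 to 0.26 percentage points between tamoxifen+rapamycin and late rapamycin mice, and by -0.15 to 2.81 between tamoxifen and late rapamycin mice.

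Without barcodes of at least 10 globin UMIs, chosen after seeing the data, the differences between erythroid and HSC-like cells were 0.35 for Hba-a1, 1.75 for Hba-a2 and -0.88 for Hbb-bt in tamoxifen+rapamycin minus late rapamycin. In tamoxifen minus late rapamycin they were 0.27 for Hba-a1, 0.30 for Hba-a2, 0.84 for Hbb-bs and 0.23 for Hbb-bt. The share of cells with a globin UMI follows depth: it was 24.0% in erythroid progenitor-like cells and 1.42% in all other classes at 1000 UMIs, 32.1% and 2.24% at 2000 UMIs, and 58.9% and 4.67% unthinned. Depth limits Alas2, which rested on 332 UMIs over 6 mice in erythroid progenitor-like cells.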
